A study of Sus scrofa with 96 samples.

Results

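The genes described are those that the cell nucleus holds for the mitochondrial respiratory chain and ATP synthase. A counted gene was a member when its symbol started with NDUFA, NDUFB, NDUFC, NDUFS, NDUFV, UQCR, ATP5 or one of COX4 to COX8, or was SDHA, SDHB, SDHC, SDHD, CYC1 or CYCS, and the rule did not take every gene that these names would allow. It found 71 of the 25880 counted gene identifiers. They comprise 33 genes of complex I (6 core subunits, 20 accessory subunits and 7 assembly factors with the same name stem), 4 of complex II, 7 of complex III, cytochrome c, 15 of complex IV and 11 of ATP synthase. The study fed pigs (Sus scrofa) 1 of 2 diets and sequenced RNA from longissimus dorsi muscle, kidney cortex, jejunum mucosa and liver. The xylose group ate a semi-purified diet with 8% D-xylose, a pentose sugar, and the control group ate that diet without xylose, with 12 animals per diet. Muscle RNA was extracted with another kit than that of the other tissues, so that kit and tissue cannot be told apart. Libraries were made by QuantSeq, which reads 1 fragment near the 3′ end of each polyadenylated transcript.

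The respiratory chain carries electrons from NADH through complex I, and from succinate through complex II, to ubiquinone, then through complex III and cytochrome c to complex IV, which reduces oxygen to water. Complexes I, III and IV pump protons across the inner mitochondrial membrane, and ATP synthase lets them back to make ATP. Most subunits come from nuclear genes and a few from mitochondrial DNA, and several nuclear subunits of complex IV exist as pairs of isoforms, one of them known from heart and skeletal muscle. Muscle contraction and the reabsorption of salt in the kidney cortex both draw heavily on this machinery.

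Of 96 libraries, 6 with under 1000000 counts were left out (5 of jejunum and 1 of liver, the lowest with 13418 counts). The 90 kept libraries held 1044588 to 6942566 counts, with a median of 3469039.5, and were 24 of muscle and 24 of kidney (12 per diet in each), 19 of jejunum (10 xylose and 9 control) and 23 of liver (11 xylose and 12 control). For 90 of the 96 files the title in the file name is that of a different sample from the one the record ties it to; tissue and diet here follow the title. The tissue so assigned matched the tissue's own markers: the summed level of 6 skeletal muscle markers, in counts per 1000000 counts of the library (CPM), was 118323 to 303831 CPM in muscle libraries and at most 9363 CPM in any other, and that of 8 liver markers was 50722 to 241276 CPM in liver and at most 4898 CPM elsewhere. Diet has no such marker, and the title and the record give the same diet for 48 of the 96 files. Within each tissue some libraries stand apart from the rest along a main axis of variation of the other genes (13 of the 90: 2 of muscle, 3 of kidney, 3 of jejunum and 5 of liver). Some results, but not all, are given with and without them.

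Complex IV changed its isoforms between muscle and the other tissues. A ratio of isoforms within a library needs no scaling between libraries, and 5 of 8 listed pairs had both members counted in these data. COX6A2 (ENSSSCG00000036789) is the isoform of subunit 6A known from heart and skeletal muscle, and COX6A1 (ENSSSCG00000039265) its counterpart in most other tissues. The lowest, median and highest level of COX6A2 was 52.7, 275 and 405 CPM in muscle, 8.91, 14.0 and 27.3 CPM in kidney, 6.14, 15.2 and 44.99 CPM in jejunum and 2.28, 7.14 and 14.1 CPM in liver. COX6A1 was lowest in muscle, with 8.56, 14.0 and 33.8 CPM in muscle, 78.3, 302 and 581 CPM in kidney, 45.95, 104 and 236 CPM in jejunum and 64.4, 139 and 307 CPM in liver. For neither gene did the muscle libraries overlap with those of another tissue. COX6A2 took 92.9% of the counts of the pair in muscle, against 5.73% in kidney, 16.2% in jejunum and 5.04% in liver. The mean log2 ratio of COX6A2 to COX6A1 was 4.01 ± 0.91 in muscle, -4.28 ± 0.81 in kidney, -2.67 ± 1.18 in jejunum and -4.42 ± 0.77 in liver (SD over 24, 24, 19 and 23 libraries). Muscle differed from kidney by 8.28, from jejunum by 6.68 and from liver by 8.43 on this scale (two-sided permutation test, adjusted p = 3.50e-05 each over 35 ratio tests, which comes from the smallest p, 1e-05, that 100000 resamples can give). The 6 skeletal muscle markers summed in kidney to 0.921% of their muscle level, while COX6A2 in kidney stood at 6.06% of its muscle level; the corresponding values were 1.34% and 7.0% in jejunum and 0.690% and 2.65% in liver.

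For subunit 7A the ratio of the pair also separated muscle from the other tissues, but the level of COX7A1 did not separate muscle from kidney. COX7A1 (ENSSSCG00000037792), the isoform known from heart and muscle, had 639, 848 and 1763 CPM in muscle, 361, 847 and 1162 CPM in kidney, 61.4, 90.03 and 168 CPM in jejunum and 86.8, 177 and 438 CPM in liver (lowest, median and highest). COX7A2 (ENSSSCG00000004480), its widely expressed counterpart, had 34.5, 64.8 and 124 CPM in muscle, 100.8, 576 and 1646 CPM in kidney, 57.0, 126 and 407 CPM in jejunum and 62.0, 196 and 293 CPM in liver. The medians of COX7A1 in muscle and kidney lay close together on this scale, and the muscle libraries overlapped with those of every other tissue for COX7A2, whereas the ratio of the pair separated muscle from all of them. Its log2 was 3.80 ± 0.69 in muscle (2.51 to 5.55), 0.62 ± 0.66 in kidney (-0.57 to 2.49), -0.68 ± 0.81 in jejunum (-2.04 to 0.995) and 0.03 ± 0.51 in liver (-0.74 to 1.71; mean ± SD and range). Muscle was higher by 3.18 than kidney, 4.47 than jejunum and 3.77 than liver (two-sided permutation test, adjusted p = 3.50e-05 each). COX7A1 made up 92.7% of the pair's counts in muscle, 60.0% in kidney, 39.2% in jejunum and 50.4% in liver. Counts of 2 genes may differ for reasons of their 3′ ends, so a share of a pair is comparable between tissues, not a measure of which isoform a tissue holds more of.

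**Figure D1:**
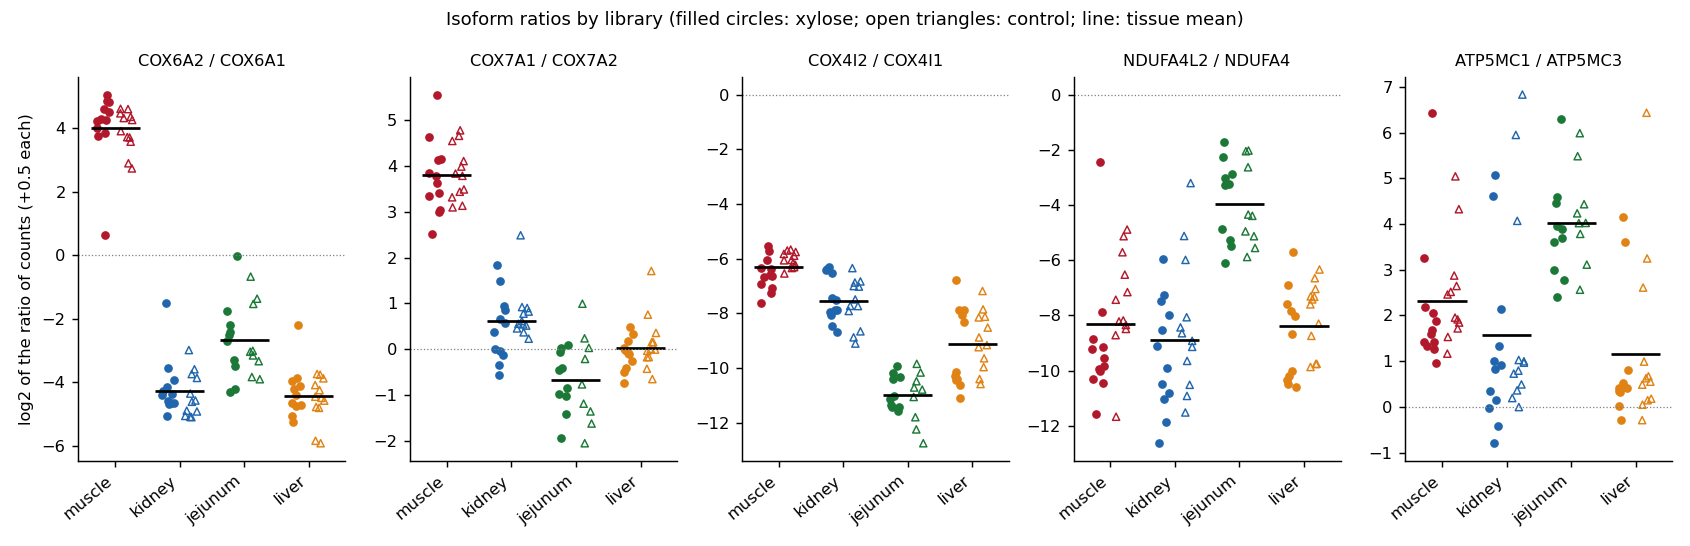
Log2 ratio of counts (0.5 added to each) of 5 pairs of isoforms in each of the 90 libraries, by tissue, with xylose libraries as filled circles, control libraries as open triangles and the tissue mean as a line. For COX6A2 / COX6A1 and COX7A1 / COX7A2 every muscle library lies above every library of the other 3 tissues. NDUFA4L2 / NDUFA4 stands highest in jejunum, the tissue with the lowest mean level of NDUFA4.

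The other 3 pairs divided the tissues differently. COX4I2 (ENSSSCG00000038384), an isoform of subunit 4 known from lung and from low oxygen, was low everywhere, at 1.46, 4.80 and 24.2 CPM in muscle, 0.666, 3.18 and 13.1 CPM in kidney, 0, 0 and 0.562 CPM in jejunum and 0, 0.241 and 1.45 CPM in liver, and 16 of 19 jejunum libraries held no count of it. Its log2 ratio to COX4I1 (ENSSSCG00000029034), the general isoform, was -6.31 ± 0.54 in muscle, -7.55 ± 0.85 in kidney, -10.99 ± 0.79 in jejunum and -9.12 ± 1.26 in liver. Muscle was higher than kidney by 1.24, than jejunum by 4.68 and than liver by 2.81 (adjusted p = 3.50e-05 each, two-sided permutation test), with overlap between muscle and kidney and between muscle and liver. Where COX4I2 was at 0 the ratio is set by the 0.5 added to each count. NDUFA4 (ENSSSCG00000024313), first described in complex I and now counted to complex IV, had 13.2, 330.0 and 598 CPM in muscle, 8.22, 251 and 803 CPM in kidney, 4.67, 10.8 and 23.9 CPM in jejunum and 30.3, 122 and 208 CPM in liver. Every jejunum library lay below every liver library for NDUFA4, while the lowest muscle and kidney libraries reached down into the range of jejunum. Its paralog NDUFA4L2 (ENSSSCG00000027621), known as a gene induced by low oxygen, reached at most 14 counts in any library. Mean NDUFA4L2 was highest in muscle (0.979 CPM) and lowest in liver (0.317 CPM). The log2 ratio of NDUFA4L2 to NDUFA4 was -8.32 ± 2.19 in muscle, -8.88 ± 2.28 in kidney, -3.95 ± 1.46 in jejunum and -8.36 ± 1.48 in liver, and rests on the few counts of NDUFA4L2. Muscle was lower than jejunum in this ratio, with a log2 difference of -4.36 (adjusted p = 3.50e-05, two-sided permutation test), and the differences from kidney (0.56) and liver (0.05) did not pass the test (adjusted p = 0.682 and 0.941). The high ratio in jejunum goes with its low NDUFA4 and is not read as more NDUFA4L2 there.

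ATP5MC1 (ENSSSCG00000017544) and ATP5MC3 (ENSSSCG00000015973) encode the same mature c subunit of the rotor of ATP synthase behind different import sequences. ATP5MC1 had 499.5, 801 and 1045 CPM in muscle, 258, 702 and 1284 CPM in kidney, 310.2, 683 and 1539 CPM in jejunum and 98.5, 197 and 361 CPM in liver, with no overlap between muscle and liver. ATP5MC3 had 11.9, 229.8 and 506 CPM in muscle, 7.42, 409.9 and 1792 CPM in kidney, 7.66, 44.9 and 239 CPM in jejunum and 3.03, 145 and 211 CPM in liver, and had the largest mean within-tissue spread of the 62 members with at least 1 CPM in every tissue. The log2 ratio of ATP5MC1 to ATP5MC3 was 2.31 ± 1.31 in muscle, 1.56 ± 2.10 in kidney, 4.02 ± 1.07 in jejunum and 1.15 ± 1.69 in liver. Muscle differed from jejunum by -1.71 (adjusted p = 0.000286) and from liver by 1.16 (adjusted p = 0.0320), and its difference of 0.75 from kidney did not pass (adjusted p = 0.342, two-sided permutation tests). Without the 13 libraries that stand apart the difference from kidney was 1.12 (adjusted p = 0.00645), but those libraries were found on an axis with which ATP5MC3 itself goes (r -0.86 in muscle and -0.97 in kidney).

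Between tissues the direction of the family depended on how libraries were scaled. The 6 muscle markers alone took 251589 ± 36880.0 CPM of muscle libraries, and the 8 liver markers took 170367 ± 54889 CPM of liver libraries. TMM scaling, which assumes that most genes do not differ, raises all other genes of such libraries relative to plain totals. Of the 71 members, 64 passed the filter on low counts. Under TMM, edgeR's quasi-likelihood test with Benjamini-Hochberg adjustment called 52 of the 64 higher and 5 lower in muscle than in kidney, where 74.6% of all 12266 genes tested were called (32.2% higher and 42.4% lower). With library totals alone the counts were 9 higher and 37 lower, against 9.51% and 81.0% of all genes. Scaling moved the members and the rest together: the median log2 fold change, muscle over kidney, was 0.98 for members and -0.16 for all genes under TMM, and -0.43 and -1.57 with totals. The members' median thus lay above that of all genes by 1.07 to 1.24 over the 14 settings computed. Which of the scalings gives the amount per cell was not tested, and in bulk tissue fewer cells of a type and less RNA per cell cannot be told apart. Jejunum libraries held 4 leukocyte markers at a sum of 121 to 334 CPM, against 6.14 to 35.4 CPM in muscle, 13.2 to 113 CPM in kidney and 41.8 to 132 CPM in liver, and 3 adipocyte markers reached 111 CPM in muscle; their part in the results was not tested.

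Muscle against jejunum gave 56 higher and 5 lower under TMM (37.5% and 43.8% of all genes, 81.3% in all) and 32 and 18 with totals (18.9% and 67.8%). Muscle against liver gave 55 higher and 5 lower under TMM (36.5% and 38.6% of all genes, 75.1% in all) and 50 and 7 with totals (23.7% and 53.9%). The members' median lay above that of all genes by 1.60 to 1.96 in muscle over jejunum and by 1.36 to 1.47 in muscle over liver. Under both scalings 9 members were higher and 5 lower in muscle than in kidney, 32 higher and 5 lower than in jejunum, and 50 higher and 5 lower than in liver. Only such members are said below to be higher or lower without naming a scaling. The share of all genes passing under both was not computed, and in any comparison it cannot exceed the share under either scaling. Against kidney, jejunum and liver it is at most 9.51%, 18.9% and 23.7% higher and at most 42.4%, 43.8% and 38.6% lower. The members that were lower in muscle under both scalings were few and recurred: COX6A1, COX7A2L, COX8A and NDUFAF3 against all 3 tissues, COX7A2 against kidney and liver, and SDHD against jejunum. Without the 13 libraries that stand apart the TMM counts, higher and lower, were 53 and 6 for muscle against kidney, 55 and 5 for muscle against jejunum and 55 and 5 for muscle against liver. Shares of all genes are not given for these fits.

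**Figure D2:**
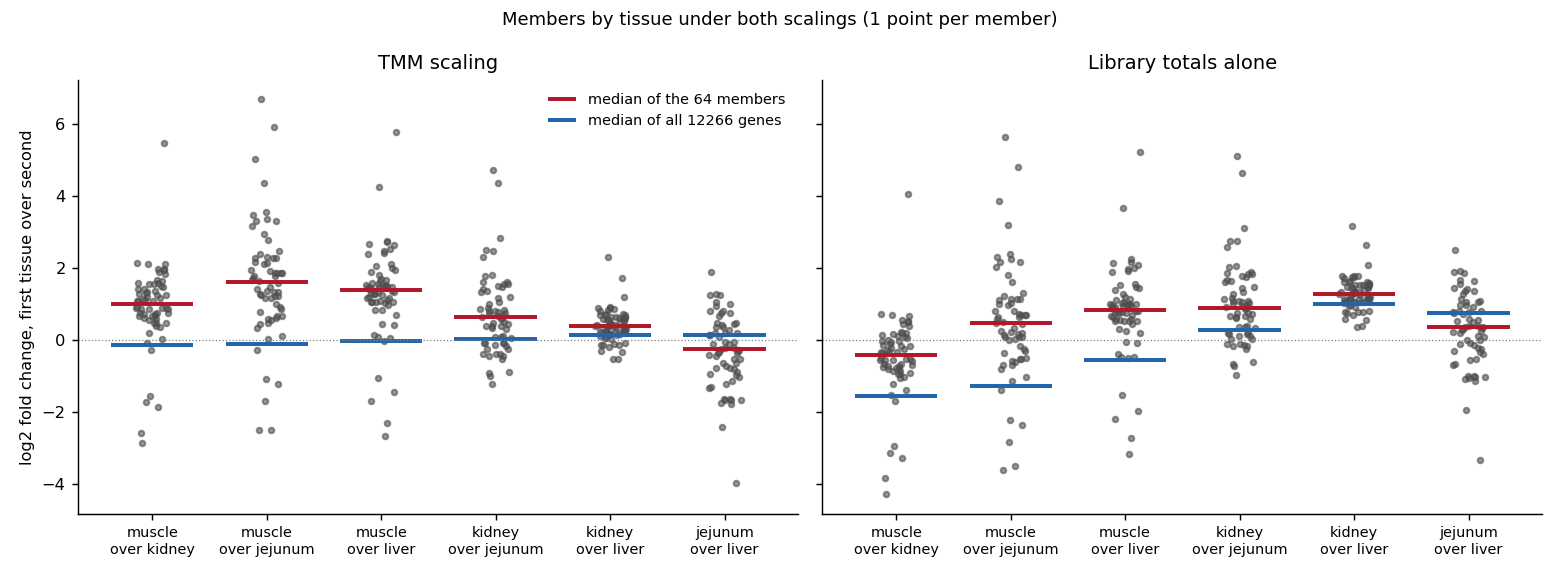
Log2 fold changes of the 64 tested members (points) in the 6 comparisons of tissues, first tissue over second, under TMM scaling (left) and with library totals alone (right), with the median of the members in red and of all 12266 genes in blue. The red line stands above the blue one in every comparison except jejunum over liver under either scaling, while in muscle over kidney the members' median is 0.98 on the left and -0.43 on the right.

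In complex I, all 18 tested accessory subunits and 4 of 5 tested core subunits were higher in muscle than in kidney under TMM, and with totals 4 accessory subunits and 1 core subunit were higher and 7 and 2 were lower. Of all genes, 32.2% were higher under TMM, and 9.51% were higher and 81.0% lower with totals. The members of complex I higher under both were the accessory subunits NDUFB11 (log2 fold change 2.10 and 0.67 under TMM and with totals), NDUFB1 (2.08 and 0.66), NDUFA8 (1.95 and 0.54) and NDUFB9 (1.82 and 0.38), the core subunit NDUFS8 (1.92 and 0.48), which holds iron-sulfur clusters, and the assembly factor NDUFAF4 (1.88 and 0.44). NDUFB1 had 85.8, 436 and 762 CPM in muscle, 33.8, 289 and 731 CPM in kidney, 39.1, 133 and 373 CPM in jejunum and 25.0, 129.5 and 228 CPM in liver. Its muscle libraries overlapped with those of every other tissue, and its median was highest in muscle. Against jejunum the accessory subunits NDUFB11 (3.45 and 2.30) and NDUFAB1 (3.35 and 2.22), also the acyl carrier protein of mitochondria, were among the highest in muscle. Against liver the core subunit NDUFS8 (2.62 and 2.07) was among the highest. NDUFAF3, an assembly factor that acts early in the building of complex I, went the other way: 17 of 24 muscle libraries had no count of it and none had over 4, whereas every kidney library had at least 1, with a median of 2.37 CPM. Its fitted log2 fold changes under TMM (-2.59 against kidney, -2.51 against jejunum and -2.33 against liver) rest on these few counts.

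Complex II, which also works in the citric acid cycle, had 4 tested subunits. Under TMM 1 of them was higher in muscle than in kidney and than in liver, and 3 were higher and 1 lower than in jejunum. Of all genes, 32.2%, 36.5% and 37.5% were higher than in kidney, liver and jejunum, and 43.8% lower than in jejunum. Against kidney the higher subunit was SDHB, at 0.84 ± 0.18 (SE; adjusted p = 1.67e-05). With totals all 4 subunits were lower, as were 81.0% of all genes. The flavoprotein SDHA had 48.2, 73.6 and 227 CPM in muscle, 159, 221 and 583 CPM in kidney, 90.9, 144 and 266 CPM in jejunum and 70.0, 98.2 and 273 CPM in liver. The membrane anchor SDHC had 73.2, 482 and 812 CPM in muscle, 80.1, 1544 and 3241 CPM in kidney, 100.4, 368 and 1205 CPM in jejunum and 192, 664 and 1098 CPM in liver, and kidney had the highest median of both. The other anchor, SDHD, had 14.2, 52.0 and 92.7 CPM in muscle, 22.2, 141 and 267 CPM in kidney, 59.1, 204 and 568 CPM in jejunum and 16.3, 81.0 and 147 CPM in liver, with its highest median in jejunum and overlap between all tissues. SDHD was lower in muscle than in jejunum, with a log2 fold change of -1.23 ± 0.24 (SE, TMM, edgeR adjusted p = 2.13e-06; -2.37 with totals), and lower in kidney than in jejunum (-1.24 and -0.97 under TMM and with totals). Complex II held 5.84% ± 1.22 of the members' counts in muscle, 11.0% ± 3.08 in kidney, 8.59% ± 2.21 in jejunum and 13.1% ± 3.05 in liver (mean ± SD over libraries), a share that no scaling alters and that was given no test.

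All 6 tested subunits of complex III were higher in muscle than in kidney, jejunum and liver under TMM, and with totals 0, 3 and 6 of them were. The shares of all genes that were higher were 32.2%, 37.5% and 36.5% under TMM and 9.51%, 18.9% and 23.7% with totals. UQCR11, a small accessory subunit, had 439, 582 and 831 CPM in muscle, 185, 843 and 1181 CPM in kidney, 43.1, 105 and 233 CPM in jejunum and 116, 234 and 384 CPM in liver, with no overlap between muscle and jejunum or between muscle and liver. Muscle was higher than jejunum by 3.53 ± 0.15 (TMM, SE; adjusted p = 1.51e-38) and by 2.38 with totals. The core protein UQCRC1 was closer, at 0.44 under TMM and -0.72 with totals against jejunum, past the threshold in opposite directions. CYC1, which encodes cytochrome c1, had no count in any of the 90 libraries, nor had the complex I subunits NDUFA2 and NDUFB7, and no level is read from that, since reads of these genes may not have been assigned. CYCS, which encodes the electron carrier cytochrome c, had 222, 297 and 411 CPM in muscle, 168, 258 and 328 CPM in kidney, 268, 408 and 589.7 CPM in jejunum and 51.5, 73.1 and 110.2 CPM in liver. Every liver library lay below every library of the other tissues. CYCS was higher in muscle than in kidney (1.66 and 0.22 under TMM and with totals) and than in liver (2.53 and 1.98), and lower in kidney than in jejunum (-1.01 and -0.74).

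In complex IV, 9 of 13 tested members were higher and 4 lower in muscle than in kidney under TMM, and 2 and 8 with totals. Of all genes, 32.2% were higher and 42.4% lower under TMM, and 9.51% and 81.0% with totals. Beside COX6A2 the other member higher under both scalings was COX5A, a subunit on the matrix side, with 109, 344 and 443 CPM in muscle, 26.4, 197 and 320.5 CPM in kidney, 24.7, 52.7 and 206 CPM in jejunum and 18.1, 68.4 and 114 CPM in liver. It was higher in muscle than in kidney by 2.13 ± 0.18 under TMM (SE, adjusted p = 8.89e-19), and the pair of values was 3.28 and 2.15 against jejunum and 2.74 and 2.24 against liver. COX8A, the general isoform of a small subunit, had 51.7, 78.6 and 119 CPM in muscle, 271, 782 and 1321 CPM in kidney, 164, 328 and 658 CPM in jejunum and 109, 308 and 639.6 CPM in liver. Its muscle libraries lay below every kidney and jejunum library and overlapped with liver. COX8A was lower in muscle, with log2 fold changes of -1.88 ± 0.14 against kidney (TMM, SE; adjusted p = 2.97e-22), -1.09 against jejunum and -1.47 against liver; in cattle another isoform of this subunit serves heart and muscle. COX7A2L, a relative of COX7A2 that helps join complexes III and IV, had 6.62, 24.5 and 51.2 CPM in muscle, 38.4, 205 and 466 CPM in kidney, 72.3, 326 and 771 CPM in jejunum and 30.3, 115 and 193 CPM in liver, and its muscle libraries did not overlap with those of jejunum. Its log2 fold changes in muscle were -1.57, -2.50 and -1.70 against kidney, jejunum and liver (TMM). COX4I1, COX5B, COX7B and COX7C were higher in muscle under TMM in all 3 comparisons, and with totals they were lower than in kidney.

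In ATP synthase, 9 of 11 members were higher in muscle than in kidney under TMM, and with totals 9 were lower and none higher. The part that was lower with totals is near the 81.0% of all genes. Against jejunum 10 of 11 were higher under TMM and 5 with totals, and against liver 10 and 9. Of all genes, 32.2%, 37.5% and 36.5% were higher than in kidney, jejunum and liver under TMM, and 9.51%, 18.9% and 23.7% with totals. ATP5PF, coupling factor 6 of the peripheral stalk, had 108, 288 and 408 CPM in muscle, 73.6, 405 and 946 CPM in kidney, 28.4, 63.2 and 169.7 CPM in jejunum and 59.1, 146 and 241 CPM in liver, and was higher in muscle than in jejunum by 3.17 ± 0.18 (TMM, SE; adjusted p = 5.34e-30) and by 2.02 with totals. ATP5F1A, a subunit of the head that makes ATP, had 165, 419 and 586 CPM in muscle, 204, 648 and 1616 CPM in kidney, 146, 256 and 873 CPM in jejunum and 154, 221 and 390.4 CPM in liver, and ATP5F1D, a subunit of the central stalk, had 88.8, 168 and 241 CPM in muscle, 84.4, 175 and 259.8 CPM in kidney, 50.7, 90.3 and 128 CPM in jejunum and 37.0, 52.9 and 93.2 CPM in liver. ATP5F1D of muscle and of kidney overlapped little with liver, and was higher in muscle than in liver by 2.09 and 1.54 under TMM and with totals. ATP5PB, another stalk subunit, was the exception: its log2 fold changes in muscle against jejunum and liver were 0.01 and 0.12 under TMM, which did not pass the test, and -1.14 and -0.40 with totals, which did. ATP5IF1, which encodes the inhibitor of ATP hydrolysis by the enzyme, had 120.2, 354 and 538 CPM in muscle, 129.8, 414 and 1054 CPM in kidney, 75.7, 174 and 433 CPM in jejunum and 71.1, 189 and 291 CPM in liver, with the higher medians in kidney and muscle and overlap between all tissues.

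**Figure D3:**
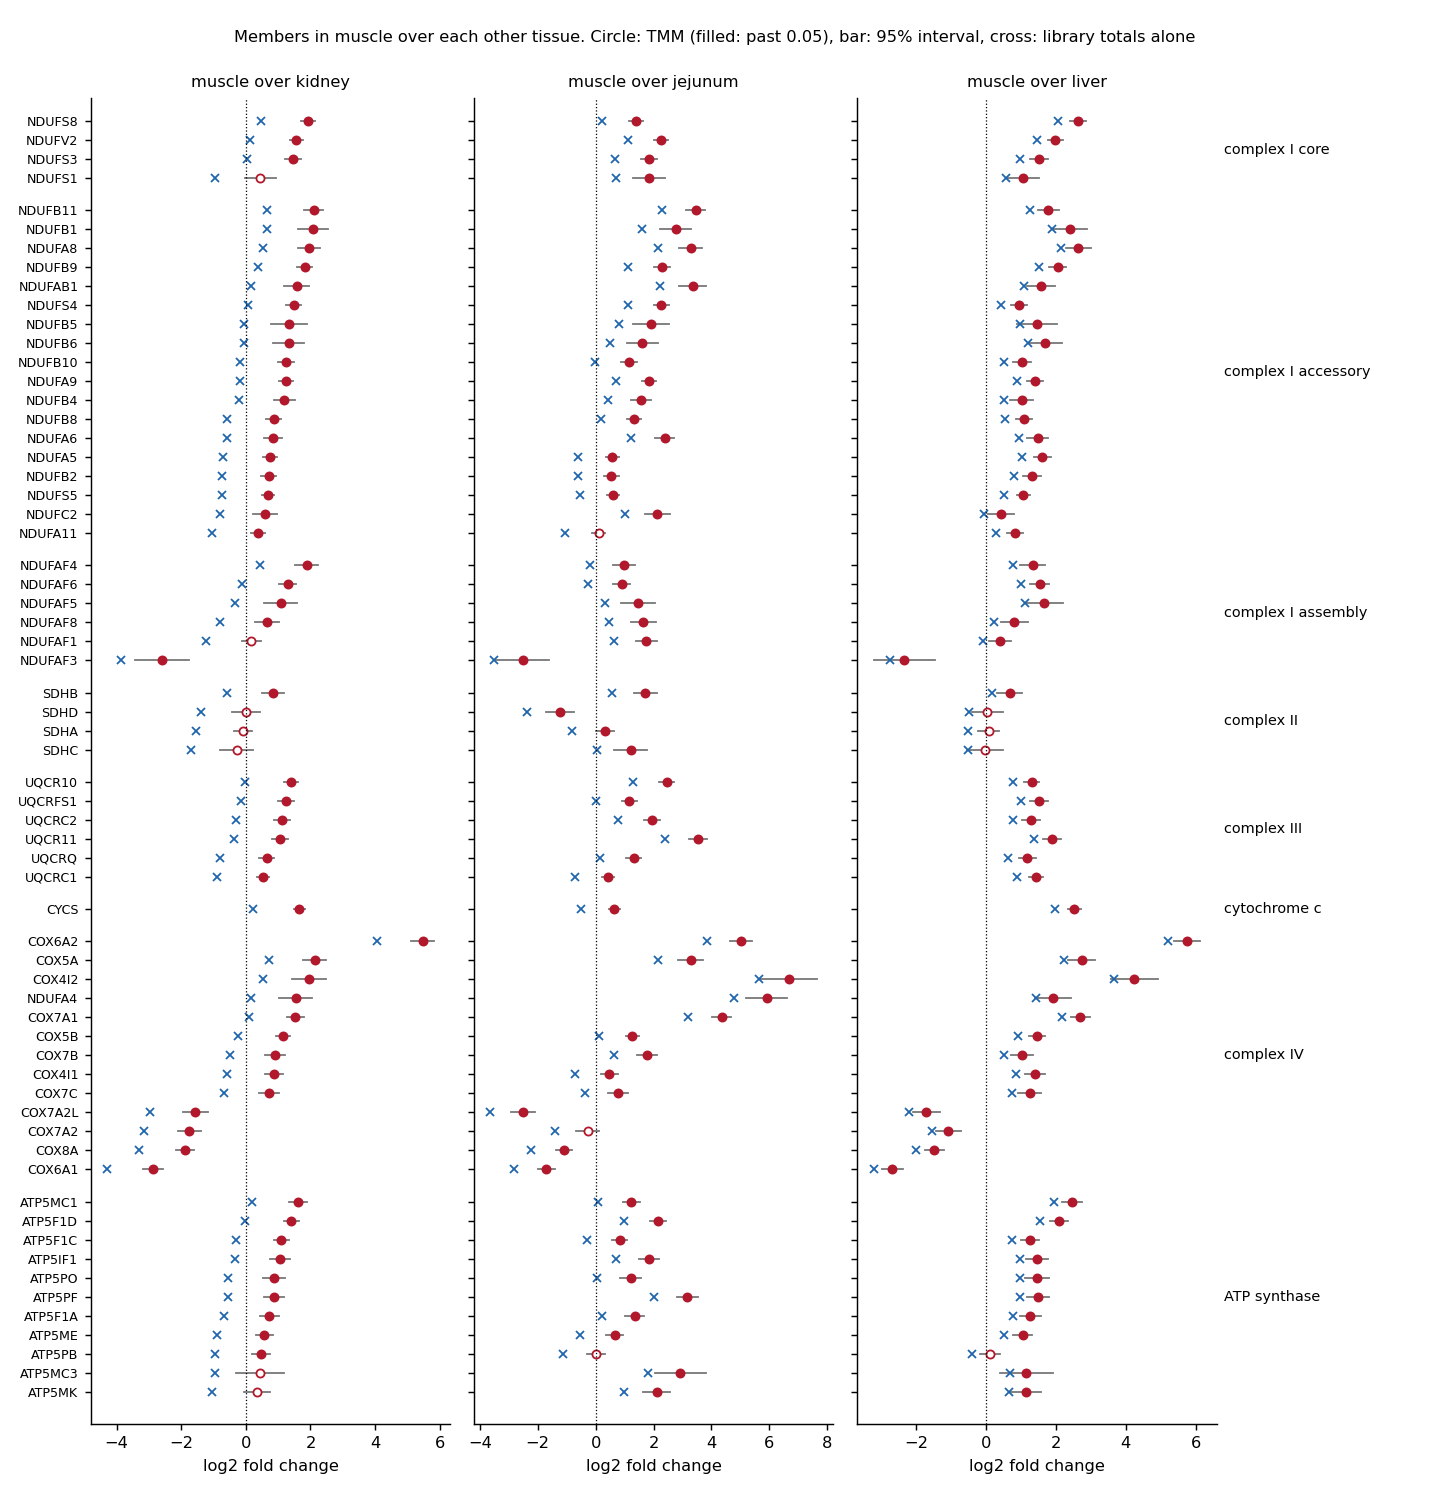
Log2 fold change of 63 of the 64 tested members in muscle over kidney, jejunum and liver, grouped by complex. Circles give the estimate under TMM with its 95% interval (filled where the adjusted p is under 0.05) and crosses the estimate with library totals alone. Circles lie right of 0 for most members in each panel, COX6A1, COX7A2L, COX8A and NDUFAF3 lie left of 0 under both scalings in all 3 panels, and the crosses lie left of the circles throughout.

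Among the other 3 tissues, kidney against jejunum gave 38 higher and 11 lower under TMM (37.3% and 37.2% of all genes, 74.5% in all) and 44 and 5 with totals (45.5% and 29.2%). Under both scalings 38 members were higher in kidney and 5 lower, the lower ones being COX7A2L, CYCS, NDUFAF4, NDUFS8 and SDHD. The largest differences were in complex IV: COX4I2 (4.71 and 5.11 under TMM and with totals, resting on a jejunum level near 0), NDUFA4 (4.36 and 4.62) and COX7A1 (2.82 and 3.09). Kidney against liver gave 30 higher and 4 lower under TMM (37.7% and 28.5% of all genes, 66.2% in all) and 63 and 0 with totals (74.2% and 11.4%). Under TMM the 4 lower members were ATP5PB, NDUFB11, NDUFS4 and NDUFAF4, and the first 3 of them were higher with totals. Jejunum against liver gave 17 higher and 30 lower under TMM (41% and 35.3% of all genes, 76.4% in all) and 33 and 13 with totals (58.4% and 22.3%). Under both scalings 17 members were higher in jejunum, led by CYCS (1.88 and 2.50), and 13 lower, led by NDUFA4 (-3.99 and -3.34). The members' median lay above that of all genes by 0.54 to 0.86 in kidney over jejunum and by 0.18 to 0.30 in kidney over liver, and the difference was -0.70 to -0.32 in jejunum over liver, over the settings computed. Without the 13 libraries that stand apart the TMM counts were 41 and 11 for kidney against jejunum, 38 and 2 for kidney against liver and 18 and 32 for jejunum against liver, again with no share of all genes given.

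As a share of all counts in a library, the 71 members summed to 1.36% ± 0.194 in muscle, 1.97% ± 0.451 in kidney, 1.15% ± 0.356 in jejunum and 0.783% ± 0.0943 in liver (mean ± SD). On this scale kidney was the highest tissue for 42 of the 64 tested members by mean CPM, muscle for 15, jejunum for 7 and liver for none, and liver was the lowest for 36, jejunum for 20, muscle for 8 and kidney for none. The same ranking over all genes was not computed, so the order is not read as particular to the members. With totals 81.0% of all genes were lower and 9.51% higher in muscle than in kidney. In kidney 74.2% were higher and 11.4% lower than in liver, and 45.5% higher and 29.2% lower than in jejunum. The 13 protein genes of mitochondrial DNA, whose transcripts QuantSeq also counts, summed to 5.87% ± 1.15, 9.25% ± 3.17, 9.76% ± 5.85 and 3.84% ± 1.37 in the same order of tissues. Complex IV took a similar part of the members' counts in each tissue, at 27.3% ± 2.10 in muscle, 29.4% ± 2.35 in kidney, 29.1% ± 1.85 in jejunum and 27.7% ± 1.71 in liver. Cytochrome c varied more, at 2.19% ± 0.470, 1.35% ± 0.408, 3.85% ± 0.832 and 0.972% ± 0.330 in that order. These shares are of counted fragments and were not tested. Of the listed subunits and assembly factors, 22 had no matching symbol among the counted genes, ATP5F1B, COX6C and UQCRB among them. The shares therefore describe the counted members and not the make-up of whole complexes.

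Other genes of the pathway moved partly with the members. Of the 13 genes of mitochondrial DNA, 12 were higher and 0 lower in muscle than in kidney under TMM and 1 and 5 with totals, 8 and 0 against 1 and 6 for muscle over jejunum, and 13 and 0 against 11 and 0 for muscle over liver. Under TMM 92.3%, 61.5% and 100% of them were called, beside 74.6%, 81.3% and 75.1% of all genes. Of 13 tested genes of the citric acid cycle, 11 were higher and 1 lower in muscle than in kidney under TMM (5 and 6 with totals), 10 and 2 than in jejunum (4 and 6) and 11 and 1 than in liver (10 and 3). Under TMM 92.3% were called in each comparison. With totals 9.51%, 18.9% and 23.7% of all genes were higher in these comparisons and 81.0%, 67.8% and 53.9% lower. Here too a pair of isoforms parted. SUCLA2, the subunit of succinyl-CoA synthetase that works with ADP, was higher in muscle (2.31 and 0.88 under TMM and with totals against kidney, 3.11 and 2.57 against liver), and SUCLG2, the subunit that works with GDP, was lower (-1.40 and -2.81 and, against liver, -1.83 and -2.36). Of 23 tested assembly factors outside the rule, 7 were higher and 11 lower in muscle than in kidney under TMM (2 and 20 with totals), 8 and 11 than in jejunum (5 and 16) and 9 and 8 than in liver (3 and 14). The shares called under TMM were 78.3%, 82.6% and 73.9%, near those of all genes. Among them UQCC2, a factor for complex III, was higher in muscle (3.21 and 1.77 against kidney), and COX15, which makes heme for complex IV, was lower (-1.78 and -3.21).

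Carriers that exchange the products of ATP synthase also differed by isoform. SLC25A4, the ADP/ATP carrier known from heart and muscle, was higher in muscle than in kidney (4.07 and 2.63 under TMM and with totals), jejunum (4.05 and 2.89) and liver (2.23 and 1.69). SLC25A5, another ADP/ATP carrier, was lower in muscle than in kidney (-4.25 and -5.65), jejunum (-3.74 and -4.87) and liver (-2.85 and -3.34). CKMT2, the mitochondrial creatine kinase of muscle, was higher in muscle than in kidney (7.50 and 6.09). Of 12 tested regulators of respiratory genes, 3 were higher and 4 lower in muscle than in kidney under TMM (1 and 11 with totals). That is 58.3% called under TMM, below the 74.6% of all genes. With totals 9.51% of all genes were higher and 81.0% lower. PPARGC1A, a coactivator of mitochondrial genes, was lower in muscle than in kidney (-1.90 and -3.35), jejunum (-1.74 and -2.94) and liver (-1.02 and -1.58). Its partner receptor ESRRG was lower in muscle than in kidney (-3.66 and -5.09) and higher than in liver (1.93 and 1.38), and against jejunum it passed in opposite directions (0.73 and -0.44). PPARGC1B, a related coactivator, was higher in muscle than in kidney (2.04 and 0.63) and liver (3.09 and 2.54) and lower than in jejunum (-1.11 and -2.27).

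Within a tissue the members varied in part together, and differed in how far they varied from library to library. The first axis of the 62 members with a mean of at least 1 CPM in every tissue held 59.5% of their variance within tissues. For each tissue the first axis of variation of the genes that are not members, with a mean of at least 20 CPM, was computed and signed so that the library farthest from 0 is positive. It held 46.1%, 46%, 36.9% and 36.2% of their variance in muscle, kidney, jejunum and liver. These values are per tissue and over far more genes, so they are not comparable with the 59.5%, which pooled the tissues. The 5 members with the largest and the 5 with the smallest spread were then set against it (40 relations). ATP5MC3, whose log2 level had a mean within-tissue SD of 1.61, fell along the axis in every tissue (Pearson's r -0.97 to -0.82, Spearman's rho -0.92 to -0.74, largest adjusted permutation p 8.90e-05 for r and 0.00104 for rho). Without the 2 libraries farthest from the axis median its r was -0.96 to -0.73. NDUFS1, the largest subunit of complex I, did the same (r -0.99 to -0.86, rho -0.94 to -0.83, and -0.97 to -0.79 without those 2; largest adjusted permutation p 7.10e-05 and 0.000125). CYCS, the member of smallest spread (SD 0.27), had r from -0.70 in jejunum to 0.61 in liver and rho from -0.74 to 0.34, with adjusted permutation p for r of 0.00159 in jejunum, 0.00262 in liver and up to 0.241 in the other tissues. Of the 40 relations, 31 had an adjusted p under 0.05 by r. The share among genes that are not members was not computed, and these members were picked by their spread. The count is therefore not read as a trait of the members. NDUFA4, among the members of largest spread, was an exception in jejunum (r -0.29, rho -0.23, adjusted permutation p 0.259 and 0.394). Member and axis come from the same library, so they share its depth and RNA, and what the axis stands for was not tested. The 13 libraries that stand apart were found by this axis.

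**Figure D4:**
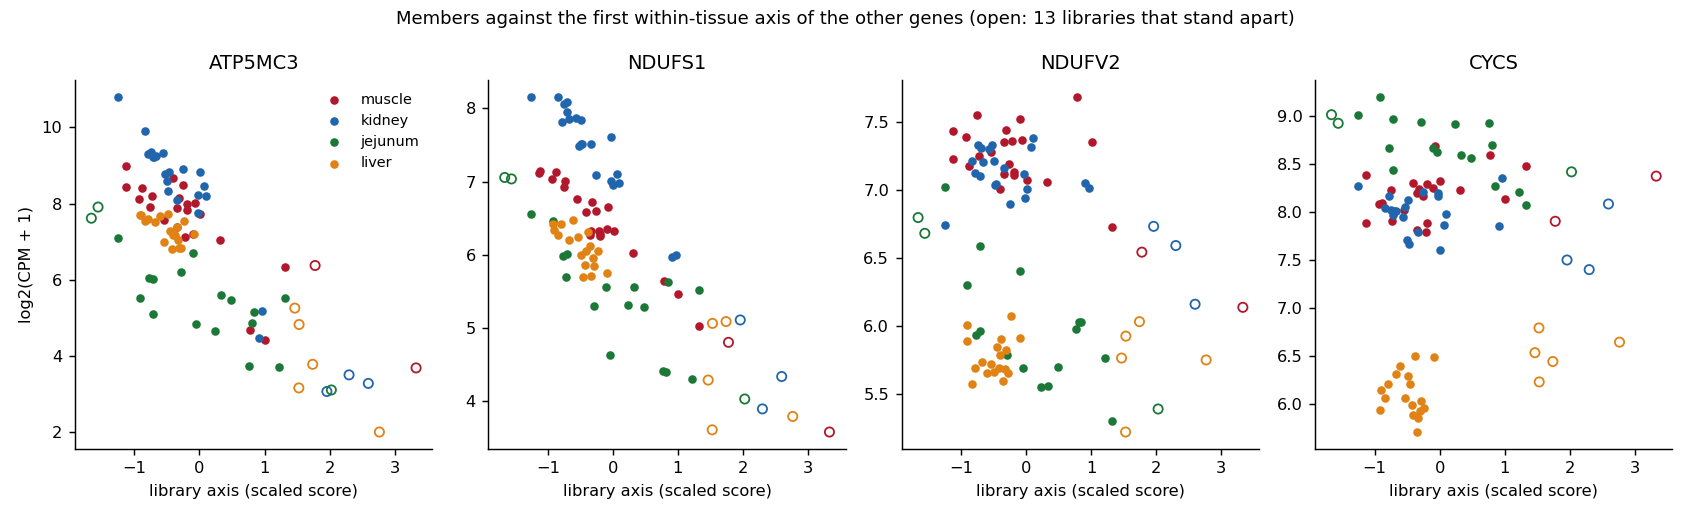
Level of 4 members, as log2(CPM + 1), against the first within-tissue axis of the other genes in the 90 libraries, coloured by tissue, with the 13 libraries that stand apart as open circles. ATP5MC3 and NDUFS1 fall steeply along the axis in the 4 tissues from left to right. NDUFV2 and CYCS span narrower ranges, and NDUFV2 is lower in the muscle and kidney libraries at the right end than in most others of those tissues.

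Diet moved no member past the threshold in any tissue. Xylose was set against control by edgeR's quasi-likelihood test with lane as a term, for 63 members in muscle, 63 in kidney, 61 in jejunum and 61 in liver. The count of members with an adjusted p under 0.05 was 0 in each tissue, as it was for all genes tested (percentage called 0), and DESeq2 called 0 members and, in muscle, 2 genes. At an unadjusted p under 0.05 there were 2, 2, 3 and 2 members in muscle, kidney, jejunum and liver by edgeR and 2, 2, 3 and 3 by DESeq2, beside 7.35%, 7.11%, 4.56% and 6.72% of all genes by edgeR. The log2 fold change was above 0 for 33 of 63, 41 of 63, 19 of 61 and 39 of 61 members, beside 55.4%, 54.5%, 50.0% and 52.0% of all genes. Members' median log2 fold changes were 0.01, 0.04, -0.11 and 0.07 in that order. The 95% interval of the fold change, not adjusted for the number of genes, lay within 2-fold either way (±1 on the log2 scale) for 62 of 63 members in muscle, 54 of 63 in kidney, 50 of 61 in jejunum and 56 of 61 in liver. Whether the diet effect differs among the tissues was tested by 3 interaction terms: 0 members passed (smallest adjusted p = 0.9999, none at an unadjusted p under 0.05), beside 1 of 12266 genes (0.00815%). Of 12 tested genes of mitochondrial DNA, 0 passed in any tissue, and the log2 fold change was above 0 for 4 in muscle, 12 in kidney, 12 in jejunum and 11 in liver, with medians of -0.12, 0.49, 0.61 and 0.14. At an unadjusted p under 0.05 there were 0, 9, 5 and 3 of them in the same order. The highest share of these genes in the counts of a library was 28.2% in jejunum and 18.9% in kidney. Both values belong to xylose libraries, the jejunum one the shallowest kept and the kidney one among those that stand apart. No values without these libraries are given for these genes.

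The members with the smallest p are given as values, none of them past the threshold. In muscle NDUFS8 had 70.6, 128 and 189 CPM in the xylose libraries and 115, 157 and 217 CPM in the control libraries (lowest, median and highest), with a log2 fold change of -0.31 ± 0.13 (SE), unadjusted p = 0.0210, adjusted p = 0.614 by edgeR. The diets overlapped. NDUFAF4, a complex I assembly factor, had -0.43 ± 0.21. In kidney NDUFAF8, another assembly factor, had 36.7, 41.5 and 65.5 CPM in the xylose libraries and 37.1, 55.7 and 276 CPM in the control libraries, with -0.86 ± 0.29 (SE), unadjusted p = 0.00588, adjusted p = 0.653, and SDHA had -0.46 ± 0.18. Here too the ranges overlapped, and the highest NDUFAF8 level belonged to the control libraries. Without the libraries that stand apart, 0 members in kidney had an unadjusted p under 0.05 by edgeR. In jejunum the accessory subunit NDUFB10 had 37.3, 83.2 and 211 CPM in the xylose libraries and 89.6, 149.7 and 343 CPM in the control libraries, with -0.65 ± 0.27 (SE), unadjusted p = 0.0235, adjusted p = 0.954. In liver NDUFB10 had -0.36 ± 0.14 (adjusted p = 0.720) and NDUFB5, of the same membrane arm, 0.68 ± 0.33. Simulated 2-fold changes were recovered for 70.5% of changed genes in muscle, 78.9% in kidney, 51.6% in jejunum and 78.1% in liver (8403, 10295, 8933 and 9245 genes). The simulated counts used the gene means and library sizes of each tissue, but the same spread for every gene and no axis shared between libraries. Recovery in the real counts may therefore differ and was not measured.

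**Figure D5:**
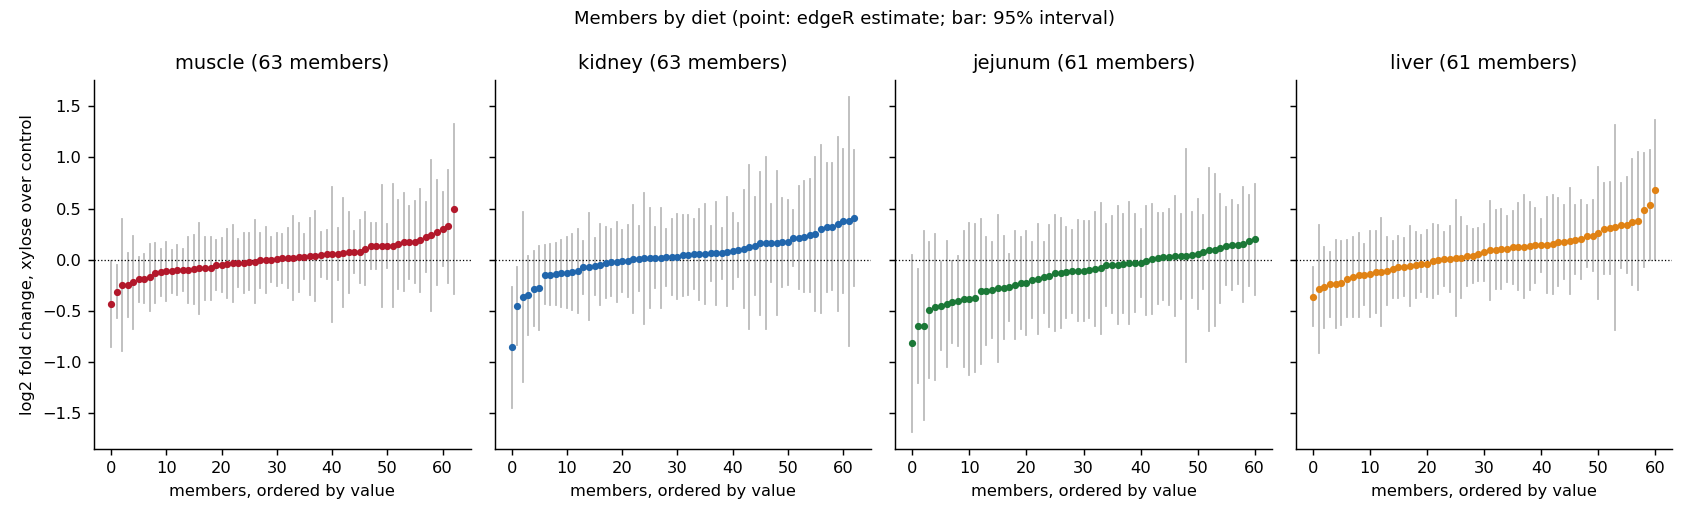
Log2 fold change, xylose over control, of each tested member in the 4 tissues, ordered by value within a panel, with its 95% interval (not adjusted for the number of genes). Points lie on both sides of 0 in each tissue, from -0.43 to 0.49 in muscle and from -0.82 to 0.20 in jejunum, and no member passed the threshold.

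Of 20 tests of an isoform ratio by diet, 1 had an unadjusted p under 0.05. The log2 ratio of COX4I2 to COX4I1 in muscle was -7.62, -6.63 and -5.55 (lowest, median and highest) in the xylose libraries and -6.55, -6.06 and -5.67 in the control libraries, which overlap. The means differed by -0.52 (two-sided permutation test, p = 0.0126, n = 12 each). The adjusted p was 0.0338 over the 35 ratio tests, 15 of which compare tissues, and 0.251 over the 20 diet tests alone, where 0 passed. The muscle libraries held at most 73 counts of COX4I2. Within lane 7 the difference was -0.47 (exact p = 0.121) and within lane 8 -0.58 (exact p = 0.0649, 6 libraries per diet in each), and leaving out each library in turn gave -0.62 to -0.43 with an unadjusted permutation p of up to 0.0250. With the diet of the record it was 0.25 (permutation p = 0.269). The 2 muscle libraries that stand apart are both xylose libraries, and they were found on an axis with which NDUFA4 and ATP5MC3 go in muscle (r -0.97 and -0.86), so leaving them out takes the highest xylose ratio of both pairs and no control library. The differences of NDUFA4L2 to NDUFA4 and of ATP5MC1 to ATP5MC3 by diet were -1.56 and -0.38 in all 24 muscle libraries and -2.22 and -0.92 without those 2, and nothing is read from the change.

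The lanes and the record gave other pictures of diet. In lane 7 alone the log2 fold change was above 0 for 38 of 63 members in muscle and 5 of 61 in jejunum, beside 50.2% and 47.5% of all genes. In lane 8 alone it was above 0 for 21 and 35, beside 53.5% and 52% of all genes, and 0 members passed the threshold in either lane. In muscle 21 of 63 members had an unadjusted p under 0.05 in lane 7, beside 19.1% of all genes, and 1 in lane 8, beside 4.64%. Members' medians in jejunum were -0.32 in lane 7 and 0.07 in lane 8. Without the libraries that stand apart 0 members passed in each tissue, and 17, 0, 7 and 8 had an unadjusted p under 0.05 in muscle, kidney, jejunum and liver by edgeR, beside 17.6%, 4.03%, 5.83% and 7.27% of all genes. The log2 fold change was then above 0 for 37 of 63 members in muscle, 39 of 62 in kidney, 17 of 61 in jejunum and 51 of 61 in liver, beside 49%, 55.4%, 48.8% and 49.8% of all genes. Of the libraries left out, 2 of 2 in muscle, 1 of 3 in kidney, 1 of 3 in jejunum and 2 of 5 in liver were xylose libraries. Had each file belonged to the sample it is recorded under, with tissue by title, 4 members would have been higher with xylose in muscle (NDUFB9, ATP5ME, NDUFA5 and NDUFAF8), where 3.33% of all genes were called. In jejunum COX7A2L and COX6A2 would have been called, 1 in each direction, where 9.80% of all genes were. Under that assignment the diets lie in different lanes, so that diet and lane cannot be told apart.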

How the data were processed

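RNA was counted by QuantSeq in 96 pig libraries of 4 tissues and 2 diets. The files the authors deposited give, for each library, an unnormalised count of reads for 25880 Ensembl identifiers, 14857 of which pair with a symbol. The submitters' processing notes name STAR and featureCounts and no version of either. The build, annotation, strand setting and handling of reads with several matches are not stated there, so members that share sequence with a paralog or overlap another gene have uncertain counts, and members listed at 0 may have been missed. Counts are of reads, since no molecular identifiers are described.

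Members and lists were chosen with earlier results of these data known. Files were assigned by the title in their name, and libraries under 1000000 counts were left out. Tissues were compared in 1 edgeR 4.0.16 model (R 4.3.3; quasi-likelihood F test, TMM, filterByExpr) with terms for group and lane, averaging both diets. Diet was tested per tissue with lane as a term. All p-values were adjusted by Benjamini-Hochberg over all genes tested, with a threshold of 0.05, and adjusted p-values of genes come from edgeR unless another tool is named. Labels give no animal numbers, so libraries of a group count as replicates, as separate samples. CPM is the count per 1000000 counts of the library; it was not divided by length, so levels are compared between tissues and not between genes. Isoform ratios are log2 of counts with 0.5 added, tested by two-sided permutation of libraries (100000 resamples, exact where a group holds under 10) and adjusted over 35 tests. Named members are the isoform pairs, the highest and lowest of a role, and up to 3 per role, comparison and direction past the threshold, or for diet the 3 of smallest p; UQCRC1, COX4I1, COX5B, COX7B, COX7C, ATP5PB, ATP5IF1, ATP5F1A and members of counts of 5 or fewer were also chosen after their values were seen. Alternatives were other scalings (DESeq2 size factors, upper quartile, library totals), no filter, a filter of 1 CPM in 12 libraries, all libraries, no lane term, DESeq2 1.42.0, each diet, lane or recorded diet alone and a block by plate position; fits without the libraries that stand apart (first-axis score beyond 2 times an even share) or with the axis as covariate were chosen after the data were seen. The edgeR steps were tested on simulated data. Some genes are not reported here. No sequence is printed.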

Additional observations from a re-analysis of the deposited data

Results flagged for a closer look

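In groups of 4 to 10 libraries, a group was marked when its highest or lowest library lay far from the rest by Dixon's ratio. Only the xylose and control groups of jejunum are that small, and 42 groups of values were checked, of which chance marks about 1 in 20. The 5 marked ones all belong to the 10 jejunum xylose libraries. COX7A2L reached 771.0 CPM in its highest library, where the median of the group was 304.2 CPM. NDUFB10 reached 210.5 CPM (median 83.24 CPM), and UQCRQ reached 442.7 CPM (median 206.6 CPM). The share of counts from CYCS was lowest at 0.0268% (median 0.0407%), and the share of the mitochondrially encoded genes was highest at 28.22% (median 8.295%). Both belong to 1 library, which with 1044588 counts is also the shallowest of the 90, and the highest COX7A2L and NDUFB10 levels belong to 1 other library.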

How the results depend on the processing

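Library totals in place of TMM moved 9 of the 12 tissue counts by over 1.5 times: muscle against kidney had 9 members higher and 37 lower, muscle against jejunum 32 and 18, kidney against jejunum 5 lower, kidney against liver 63 and 0, and jejunum against liver 33 and 13. Among members called under TMM, the sign turned under no other setting. The 4 members lower in kidney than in liver became 2 by upper quartile scaling, without a filter, in control libraries alone and without the libraries that stand apart, 1 in xylose libraries alone and 7 with the library axis as a covariate. The 11 lower in kidney than in jejunum became 7 with all libraries and 6 in xylose libraries alone. With the recorded diet, 4 members in muscle and 2 in jejunum passed. Some isoform differences that did not pass the test changed sign: NDUFA4L2 over NDUFA4, muscle against liver, was -0.25 with a pseudocount of 1 and -0.20 with all libraries. By diet, COX4I2 over COX4I1 was -0.17 in jejunum and 0.19 in liver with all libraries. Without the libraries that stand apart, COX6A2 over COX6A1 was 0.35 and COX7A1 over COX7A2 0.13 in jejunum. In muscle without those libraries NDUFA4L2 over NDUFA4 was -2.22 and ATP5MC1 over ATP5MC3 -0.92 by diet, and ATP5MC1 over ATP5MC3 was 1.12 against kidney, all past the threshold, but both muscle libraries left out are xylose libraries, found on an axis with which NDUFA4 and ATP5MC3 go. COX4I2 over COX4I1 by diet in muscle (-0.52) did not pass when adjusted over the 20 diet tests alone (adjusted permutation p = 0.251, chosen after the data were seen), and was -0.47 in lane 7, -0.58 in lane 8 (neither past the threshold) and 0.25 with the recorded diet. The causes were not tested. A replicate block by plate position gave 54 members higher and 5 lower for muscle against kidney, 56 and 5 against jejunum, 55 and 5 against liver, 40 and 10 for kidney against jejunum, 31 and 4 for kidney against liver and 17 and 32 for jejunum against liver. Beside these counts by tissue, shares of all genes are given only for the main TMM fit and for library totals. Libraries of 1 plate position in 2 tissues correlated from -0.33 to 0.58 over genes (median 0.09, 54 of 126 pairs over 0.1), against a median of -0.01 and 107 of 632 at other positions of the same diet and lane. Pairs of the same position were thus over 0.1 more often than the others, but the labels give no animal numbers, so positions were not taken as animals. The 4 tissues come from the same 24 animals, so libraries of different tissues are not independent. The permutation tests of isoform ratios between tissues treated them as separate and had no paired alternative. For diet no pairing exists, since each animal ate 1 diet. Members under about 1 CPM are limited by depth.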

Other observations

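Outside the members, genes that work with the respiratory chain were also compared between the tissues other than muscle by edgeR's quasi-likelihood test. Of 13 tested genes of the citric acid cycle, kidney had 6 higher and 5 lower under TMM (6 and 4 with totals) than jejunum and 6 higher and 3 lower under TMM (11 and 0 with totals) than liver. That is 84.6% and 69.2% called under TMM, beside 74.5% and 66.2% of all genes. Of the 13 genes of mitochondrial DNA, kidney had 2 higher and 5 lower under TMM (4 and 3 with totals) than jejunum and 6 higher and 0 lower (12 and 0 with totals) than liver, and jejunum had 7 higher and 0 lower (12 and 0 with totals) than liver. Under TMM 53.8%, 46.2% and 53.8% of them were called, below the 74.5%, 66.2% and 76.4% of all genes. IDH3A, a subunit of the NAD-dependent isocitrate dehydrogenase, was higher in muscle than in liver (4.13 and 3.54 on the log2 scale under TMM and with totals). BCS1L, which inserts the iron-sulfur protein into complex III, was lower in muscle than in jejunum (-3.14 and -4.24), and SCO1 and SCO2, which bring copper to complex IV, were lower as well (-2.69 and -3.84 for SCO1, -2.38 and -3.52 for SCO2). These 4 genes were chosen after their values were seen.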
